A study of Mus musculus with 9 samples.

Results

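The genes described here build the machinery that ties chromosomes to the mitotic spindle. The set holds 40 genes named by symbol, of centromere chromatin, the kinetochore, the spindle checkpoint, the chromosomal passenger complex and the shugoshins. They were chosen with earlier results of these data known. Of the 40 genes, 39 were measured, among 19938 genes in all, and each of the 39 had a single probe set. Hjurp was represented only by a probe set annotated to several genes and was not analysed here. Knl1, Sgo1 and Sgo2a are listed under the older names Casc5, Sgol1 and Sgol2. RNA came from mouse embryonic fibroblasts that were wild type (Rb +/+, called WT), homozygous for the ∆G allele of the retinoblastoma gene (Rb ∆G/∆G, called ∆G) or without it (Rb -/-, called null), with 3 arrays of each genotype. The ∆G allele carries changes that disrupt general E2F binding, the contact RB makes with the transactivating region of E2F transcription factors. All cells, WT included, were held in 0.1% serum after 24 h of growth, a treatment that makes normal fibroblasts stop cycling. The series text speaks of littermate cultures, but no label says which arrays share a litter, and the extent of the deletion in the null allele is not given in the sources used here.

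Each chromosome carries a centromere, where nucleosomes contain the histone variant CENP-A. An inner layer of proteins binds this chromatin throughout the cell cycle, and in mitosis it supports an outer layer that grips microtubules. The spindle checkpoint proteins gather on unattached kinetochores and delay anaphase, while the chromosomal passenger complex, whose kinase is Aurora B, releases faulty attachments and the shugoshins protect sister cohesion. The RNAs of many of these genes peak in the G2 and M phases. In resting cells such genes are held down by the DREAM complex, which contains E2F4 and the RB relatives p107 or p130 and binds promoters through E2F sites and through an element called CHR.

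Values are log2 RMA signals, so a difference of 1 is a doubling of the linear signal. Array medians lay between 6.33 and 6.40. Rb1 itself read 8.93, 9.17 and 9.16 on WT replicates 1, 2 and 3, 9.53, 9.76 and 9.54 on the ∆G arrays and 8.18, 8.58 and 8.19 on the null arrays, a null change of −0.77 (limma adjusted p = 0.0011). The 8 fibroblast markers had mean signals of 11.67 to 11.99 on WT, 11.69 to 11.87 on ∆G and 11.23 to 11.42 on null arrays, and 6 of the 8 fell in null. Mean signals of 8 macrophage and leukocyte markers were 5.49 to 6.30, 5.71 to 6.80 and 5.69 to 5.83 in the same order. The 6 epithelial markers lay at 5.69 to 5.91 and the 6 endothelial markers at 5.53 to 5.81 over all arrays. Null arrays and WT replicate 3 had high Xist (11.42 to 11.98) and low Y-linked signal, and the other arrays had Xist at 4.24 to 4.45, so sex pattern coincides with genotype between ∆G and null and in part against WT. ∆G replicate 3 stood apart from its group: it lay at −0.30 on the first principal component, with the other ∆G arrays at −13.9 and −11.5, WT at −21.3 to −14.7 and null at 24.2 to 27.4. The comparisons of ∆G with WT and with null below therefore also give counts, medians and the main genes without it.

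The comparison of null with WT asks what these genes do in serum-deprived cells that lack RB altogether. Nearly the whole apparatus was higher in null cells, from the histone variant at its base to the checkpoint kinases at its surface. Of the 39 genes, 32 rose, 1 (Zwint) fell and 6 did not pass the threshold, a limma adjusted p under 0.05 over all genes. Over all genes tested 18.4% were called in this comparison, 8.38% as higher and 10.1% as lower. The median log2 change of the 39 genes was 0.84, a fold of 1.79, and that of all genes tested was −0.010. The signals of 36 of the 39 genes were higher on every null array than on any WT array, which held for 15.7% of all genes, and Zwint was lower on every null array, which held for 18.9%. The 6 genes without a call were Cenpc1, Cenpo and Cenpq of the inner layer, Zw10 of the outer layer and Bub3 and Mad1l1 of the checkpoint. In bulk RNA, more cells in mitosis and more RNA per cell cannot be told apart.

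**Figure D1:**
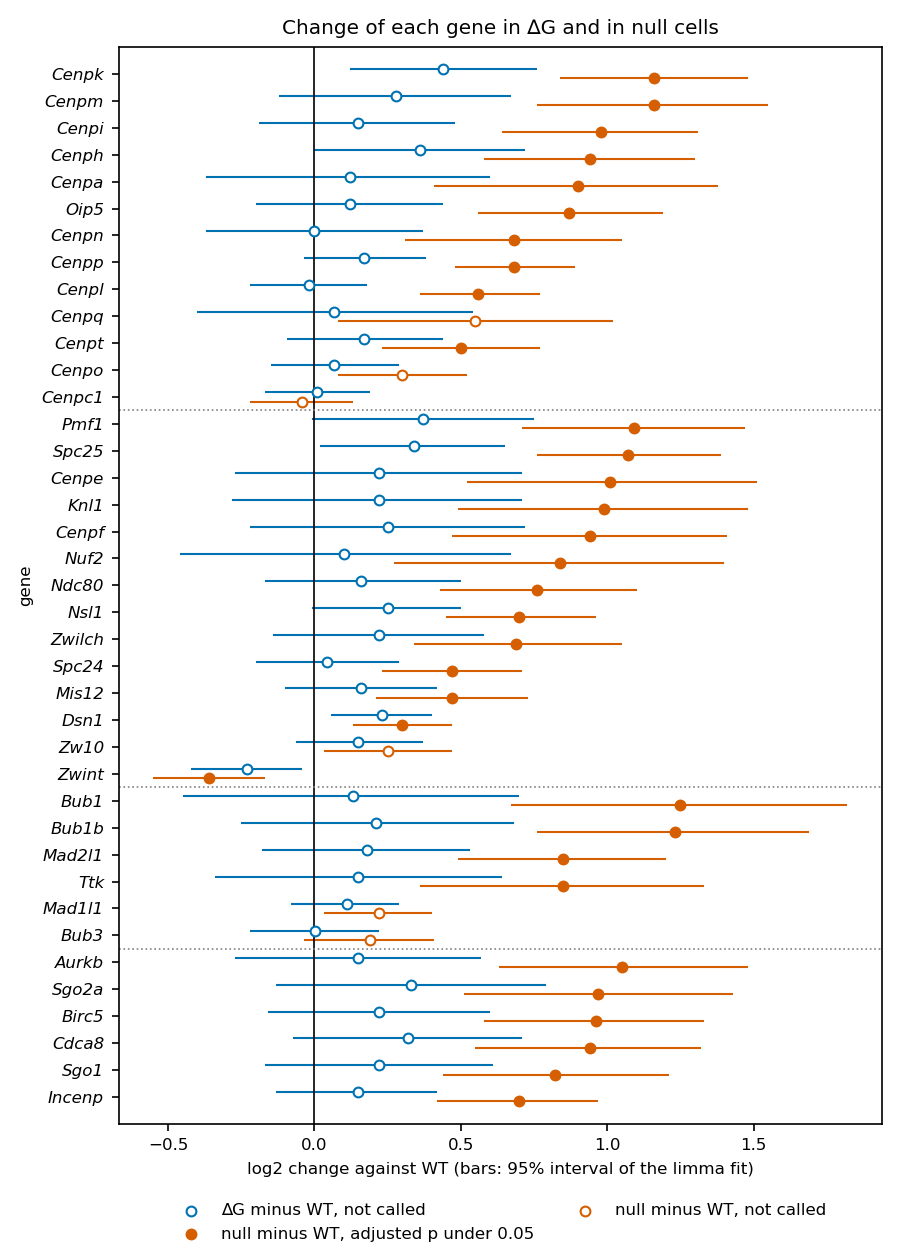
Log2 change against WT for each of the 39 genes (horizontal axis, with 95% intervals of the limma fit), in ∆G (blue) and in null cells (orange), sorted by the null change within inner kinetochore, outer kinetochore, checkpoint, and passenger and shugoshin genes from top to bottom, with dotted lines between them. Filled points passed an adjusted p of 0.05: 33 did in null and none in ∆G, and Zwint is the only filled point below 0.

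The null count was lower in the fits that took the sex pattern of the arrays into account. Against WT replicate 3 alone, the WT array with the same pattern as the null arrays, the median of the 39 genes was 0.94. In that fit the lone WT array was assumed to vary like the other groups. When the Y-linked mean entered as a covariate, 10 rose and the median was 0.83, so the size of the change stayed near 0.84 while fewer genes passed. Those 10 genes, Cenph, Cenpi, Cenpk, Cenpl, Cenpm, Cenpp, Spc25, Nsl1, Pmf1 and Birc5, were called in every alternative that was run. Without ∆G replicate 3, 35 genes were called (34 higher), and 32 were called without WT replicate 1 (31 higher). Over all genes the shares called were 19.5% and 14.9%. The median null change of the 8 fibroblast markers was −0.54 with all arrays, −0.30 against WT replicate 3 alone and −0.27 with the Y-linked covariate. With that covariate none of the 8 was called. The part of this fall in the changes of the 39 genes was not tested.

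The promoters of these genes can be read beside their changes, because the group moved together. RefSeq promoter windows (GRCm38.p6, 250 bases before to 50 bases after the start) were found for 34 of the 39 measured genes. No window was listed for Spc24, Nsl1, Zwilch, Aurkb and Incenp, and for the 4 genes with more than 1 window the one listed first was read. Windows were searched on both strands for E2F sites (TTTCCCGC, TTTGGCGC, TTTCGCGC or TTTGCCGC), for CHR (TTTGAA or TTCGAA) and for the CCAAT box (CCAAT), the site of the factor NF-Y. Shown are the windows of the inner kinetochore gene Cenpm (chr15:82244287-82244586, minus strand), the outer kinetochore gene Spc25 (chr2:69206164-69206463, minus strand) and the checkpoint kinase gene Bub1 (chr2:127831810-127832109, minus strand), each among the largest rises of its layer. They are examples that hold a CHR, and Cenpk, Cenpi, Cenpe and Mad2l1, also among the largest rises of their layers, held none. Mcm6 (chr1:128359656-128359955, minus strand), a replicative helicase gene, is set beside them because it rose in ∆G as well, as did the other helicase genes measured. Mcm2, another of these, held a CHR and no E2F site. Capitals mark E2F sites and CHR, 5′ to 3′.
Cenpm: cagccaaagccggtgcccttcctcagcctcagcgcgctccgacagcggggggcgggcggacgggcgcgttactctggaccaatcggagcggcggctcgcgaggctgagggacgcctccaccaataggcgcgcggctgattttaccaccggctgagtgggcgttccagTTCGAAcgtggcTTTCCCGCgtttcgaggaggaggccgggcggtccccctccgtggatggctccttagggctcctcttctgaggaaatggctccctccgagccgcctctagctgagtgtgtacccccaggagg
Spc25: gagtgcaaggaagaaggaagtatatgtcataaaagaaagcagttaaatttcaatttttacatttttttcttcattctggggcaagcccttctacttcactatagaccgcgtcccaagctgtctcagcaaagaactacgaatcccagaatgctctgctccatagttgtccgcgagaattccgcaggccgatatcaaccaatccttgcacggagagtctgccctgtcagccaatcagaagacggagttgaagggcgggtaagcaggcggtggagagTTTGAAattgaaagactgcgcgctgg
Bub1: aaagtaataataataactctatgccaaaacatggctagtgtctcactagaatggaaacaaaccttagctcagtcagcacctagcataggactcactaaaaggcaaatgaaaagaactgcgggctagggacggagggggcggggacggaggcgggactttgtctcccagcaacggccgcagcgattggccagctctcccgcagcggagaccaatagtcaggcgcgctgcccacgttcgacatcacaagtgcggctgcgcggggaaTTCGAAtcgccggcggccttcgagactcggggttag
Mcm6: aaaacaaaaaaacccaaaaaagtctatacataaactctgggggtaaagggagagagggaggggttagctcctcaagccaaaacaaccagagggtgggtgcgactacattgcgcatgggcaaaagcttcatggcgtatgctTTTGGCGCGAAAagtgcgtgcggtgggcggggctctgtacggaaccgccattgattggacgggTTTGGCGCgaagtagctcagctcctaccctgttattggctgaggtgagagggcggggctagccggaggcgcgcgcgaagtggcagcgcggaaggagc

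Counting the first transcribed base as 1, CHR began at base 25 in Spc25 and at base 15 in Bub1. In Cenpm it began 83 bases before the start, at −83, with an E2F site at −71. Mcm6 held no CHR and 3 E2F sites, at −110, −106 and −47, of which the first 2 overlap on opposite strands. CHR was found in 17 of the 34 windows, against 19.4% of the windows of 27025 genes. Within 50 bases of the start, a limit chosen after the positions were seen, it was found in 13 (38.2%) against 5.29% of all genes. The CCAAT box was in 23 windows (67.6%) against 37.9%, and an E2F site in 3 (8.82%) against 2.32%. Those 3 genes were Cenpl, Cenpm and Dsn1. With the letters searched, an E2F site and a CHR cannot share bases, so no overlap between them could be found in any window. The windows of the 34 genes had a median GC content of 58.0%, against 52.7% for all genes. The median null change was 0.90 in genes with CHR and 0.68 in genes without it, and 0.94 and 0.68 for the CCAAT box. For the E2F site the order was the other way, 0.56 in the 3 genes with it and 0.85 in those without. Among the passenger and shugoshin genes the CHR medians were also the other way, 0.88 with and 0.96 without. In ∆G the medians with and without CHR were 0.16 and 0.17. These are matches of letters in a window, described without a test, and they do not show binding.

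**Figure D2:**
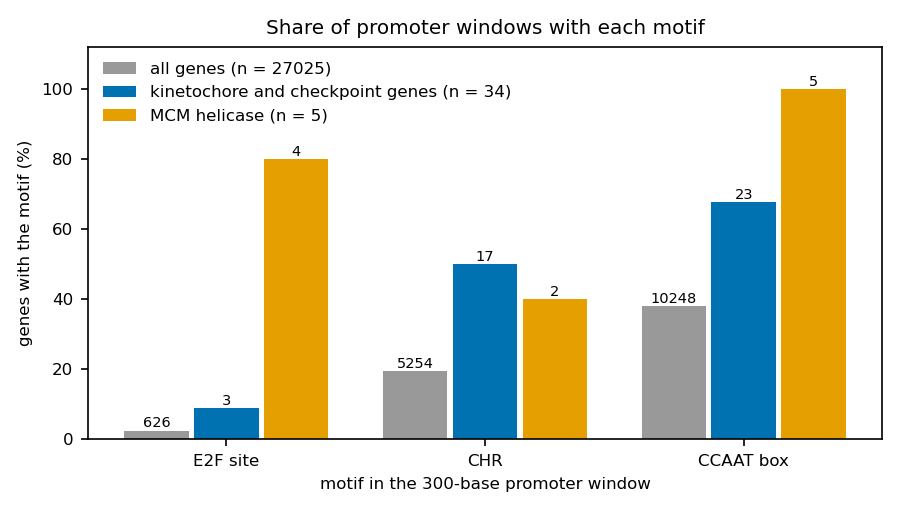
Share of promoter windows (vertical axis, percent of genes with a window) that hold an E2F site, a CHR or a CCAAT box, for all genes with a window (grey), the kinetochore and checkpoint genes (blue) and the MCM helicase genes (orange), with the number of genes above each bar. CHR was in 17 of 34 kinetochore and checkpoint windows, and an E2F site in 3 of them and in 4 of 5 MCM windows.

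Among the genes of centromere chromatin and the inner kinetochore, 10 of 13 rose in null and none fell, with a median log2 change of 0.68. Cenpk and Cenpm, subunits of the CENP-H, I, K and M complex, both rose 2.23-fold. Cenpk read 6.58, 5.97 and 6.19 on the WT arrays, 6.66, 6.52 and 6.90 on the ∆G arrays and 7.53, 7.38 and 7.32 on the null arrays. Cenpm read 7.36, 6.82 and 6.97 on WT, 7.12, 7.09 and 7.78 on ∆G and 8.28, 8.23 and 8.10 on null arrays. In both genes the null arrays lay above all others, and ∆G replicate 3 was the highest ∆G array (null minus WT 1.16, SE 0.14 and 0.18, limma adjusted p = 0.0003 and 0.0012). Cenpi of the same complex had signals of 6.18, 5.67 and 5.82 in WT, 5.89, 5.83 and 6.38 in ∆G and 6.89, 6.94 and 6.76 in null cells, a rise of 0.98 in null (SE 0.15, limma adjusted p = 0.0013). Cenph, its remaining member, rose 1.92-fold.

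The inner layer was not uniform. Cenpa, the centromeric histone, rose 1.86-fold and Oip5, a subunit of the Mis18 complex that prepares centromeres for new CENP-A, 1.83-fold. Cenpn and Cenpl, which form a complex that recognises the CENP-A nucleosome, rose 1.60-fold and 1.48-fold, and Cenpp, of the CENP-O, P, Q, U and R complex, rose 1.61-fold. Cenpt, a histone-fold protein that recruits the NDC80 complex, rose 1.41-fold. Cenpa and Cenpn lost their calls without WT replicate 2 (limma adjusted p = 0.065 and 0.069), without null replicate 1 (0.062 and 0.069) and against WT replicate 3 alone (0.058 and 0.15). Cenpt lost its call without WT replicate 1 (0.055) and against WT replicate 3 alone (0.15). Cenpo and Cenpq had log2 changes of 0.30 and 0.55 (limma adjusted p = 0.06 and 0.1). Cenpc1, which encodes CENP-C, the protein that links the CENP-A nucleosome to the outer layer, had the smallest change. It read 7.22, 7.33 and 7.34 on WT, 7.28, 7.35 and 7.29 on ∆G and 7.38, 7.27 and 7.11 on null arrays, with all 3 groups overlapping. Its null change was −0.044 with a 95% interval of −0.22 to 0.13, an interval that excludes the changes of the called members of its layer.

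In the outer kinetochore 12 of 14 genes rose, Zwint fell and Zw10 did not pass, with a median of 0.73. The layer is built on the 4-subunit MIS12 complex, and among its genes Pmf1 rose most. Pmf1 read 6.96, 6.69 and 6.59 on WT, 6.79, 6.97 and 7.59 on ∆G and 7.86, 7.91 and 7.74 on null arrays, a rise of 2.13-fold in null (log2 1.09, SE 0.17, limma adjusted p = 0.0013). Nsl1 rose 1.63-fold, Mis12 1.38-fold and Dsn1 1.23-fold. Dsn1 read 8.05, 7.88 and 7.89 on WT, 8.10, 8.12 and 8.28 on ∆G and 8.24, 8.27 and 8.20 on null arrays. For Dsn1 the ∆G and null arrays overlapped and both lay above WT, whereas in Mis12, Nsl1 and Pmf1 the ∆G arrays overlapped WT. Mis12 and Dsn1 were not called in 4 and 5 of the alternatives that leave out an array or restrict WT to replicate 3, at limma adjusted p-values of 0.056 to 0.099.

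The NDC80 complex, the main microtubule grip of the kinetochore, rose in all of its subunits. Spc25 read 7.50, 7.23 and 7.23 on WT, 7.48, 7.45 and 8.03 on ∆G and 8.43, 8.49 and 8.26 on null arrays, a rise of 2.11-fold in null (log2 1.07, SE 0.14, limma adjusted p = 0.00049). Nuf2, Ndc80 and Spc24 rose 1.79-fold, 1.70-fold and 1.38-fold. Nuf2 had the widest WT spread of the complex (SD 0.43) and lost its call without WT replicate 2 or 3 (limma adjusted p = 0.16 and 0.11) or without any 1 of the 3 null arrays (0.15, 0.066 and 0.086). It also lost its call against WT replicate 3 alone (0.11) and with a trended, robust prior (0.095). Spc24 lost its call without null replicate 1 (0.06) and against WT replicate 3 alone (0.085), and Ndc80 only in the latter of these (0.052), apart from the fit with the Y-linked covariate. Cenpe, a kinesin of the fibrous corona, read 7.50, 6.79 and 6.79 on WT, 6.97, 7.0 and 7.77 on ∆G and 8.19, 8.04 and 7.90 on null arrays, a 2.02-fold rise. Cenpf, a large coiled-coil protein of the corona, rose 1.92-fold, and Knl1, the scaffold on which checkpoint proteins dock, 1.98-fold.

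The remaining outer genes gave smaller or opposite values. Zwilch, of the complex with Rod and Zw10 that brings dynein and the Mad1 protein to kinetochores, rose 1.62-fold, a call lost without WT replicate 2 (limma adjusted p = 0.052), without null replicate 1 (0.051) and against WT replicate 3 alone (0.051). Zw10, which also serves in vesicle traffic between organelles, read 7.73, 7.61 and 7.45 on WT, 7.67, 7.64 and 7.94 on ∆G and 7.81, 7.93 and 7.80 on null arrays. Its null change of 0.25 (95% interval 0.031 to 0.47) did not pass (limma adjusted p = 0.11). Zwint, which encodes a partner of Knl1, read 9.54, 9.66 and 9.65 on WT, 9.39, 9.36 and 9.41 on ∆G and 9.33, 9.38 and 9.07 on null arrays. Both mutant groups lay wholly below WT, and the null change of −0.36 passed (SE 0.087, limma adjusted p = 0.014). That call was lost without WT replicate 2 and against WT replicate 3 alone (limma adjusted p = 0.054 and 0.11).

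Of the 6 checkpoint genes 4 rose and none fell, with a median of 0.85. Bub1, a kinase that marks centromeric chromatin, had the largest change of all 39 genes. It read 8.19, 7.49 and 7.68 on WT, 7.58, 7.51 and 8.64 on ∆G and 9.16, 8.94 and 9.0 on null arrays, a rise of 2.38-fold in null (log2 1.25, SE 0.26, limma adjusted p = 0.0066). Its promoter window holds the CHR printed above. ∆G replicates 1 and 2 lay within the WT range, and ∆G replicate 3 lay above all WT arrays and below all null arrays. Bub1b, which encodes the inhibitor BubR1 of the anaphase-promoting complex, read 7.30, 6.53 and 6.85 on WT, 7.02, 6.75 and 7.55 on ∆G and 8.32, 8.05 and 7.99 on null arrays, a 2.34-fold rise (log2 1.23, SE 0.21, limma adjusted p = 0.0023). Mad2l1, the Mad2 protein that binds Cdc20, read 9.21, 8.70 and 8.80 on WT, 8.83, 8.96 and 9.45 on ∆G and 9.83, 9.80 and 9.63 on null arrays, a 1.80-fold rise. Ttk, the kinase Mps1 that starts checkpoint signalling, also rose 1.80-fold. Ttk lost its call without WT replicate 2 or 3 (limma adjusted p = 0.07 and 0.076) and without null replicate 1 or 2 (0.077 and 0.062).

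The other checkpoint genes had narrower intervals. Bub3, the WD40 protein that carries Bub1 and BubR1 to Knl1, read 9.36, 9.35 and 9.51 on WT, 9.44, 9.21 and 9.57 on ∆G and 9.66, 9.67 and 9.45 on null arrays, so that the groups overlapped. Its null change was 0.19 with a 95% interval of −0.037 to 0.41. Mad1l1, which encodes the anchor of Mad2 and resides at nuclear pores in interphase, had a null change of 0.22 with an interval of 0.031 to 0.40 (limma adjusted p = 0.11). The called changes of Bub1 and Bub1b lay above both upper bounds.

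Passenger and shugoshin genes, which act at the inner centromere between the sister kinetochores, all rose in null, 6 of 6, with the highest median of the 4 groups, 0.95. Aurkb, the Aurora B kinase, read 8.46, 7.95 and 8.03 on WT, 8.09, 8.0 and 8.81 on ∆G and 9.31, 9.23 and 9.06 on null arrays, a 2.07-fold rise (log2 1.05, SE 0.19, limma adjusted p = 0.0032). Birc5, the passenger subunit survivin, read 6.72, 6.40 and 6.27 on WT, 6.42, 6.49 and 7.14 on ∆G and 7.53, 7.35 and 7.37 on null arrays, a 1.94-fold rise. Cdca8, which encodes borealin, rose 1.91-fold. Sgo2a, a shugoshin, read 8.14, 7.29 and 7.42 on WT, 7.83, 7.71 and 8.31 on ∆G and 8.76, 8.45 and 8.55 on null arrays, a 1.96-fold rise, and Sgo1 rose 1.77-fold. Incenp, the scaffold of the complex, had the smallest rise of the group. It read 7.16, 6.88 and 7.07 on WT, 7.03, 7.03 and 7.49 on ∆G and 7.80, 7.79 and 7.61 on null arrays, a 1.62-fold rise (log2 0.70, SE 0.13, limma adjusted p = 0.0029). In each of the 6 genes WT replicate 1 was the highest WT array, ∆G replicate 3 the highest ∆G array and null replicate 1 the highest null array. Incenp lost its call against WT replicate 3 alone (limma adjusted p = 0.05 after rounding). With the Y-linked covariate 1 of the 6, Birc5, was called, and Aurkb, Cdca8, Sgo1, Sgo2a and Incenp had limma adjusted p-values of 0.052, 0.051, 0.064, 0.065 and 0.081, with a group median of 1.05.

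The inner and outer kinetochore can be set side by side. The median null change was 0.68 in the inner and 0.73 in the outer layer, a difference of −0.049 before rounding, and the medians in ∆G were 0.12 and 0.22, a difference of −0.096. On single arrays, the mean signal of the inner genes minus that of the outer genes was −0.65, −0.58 and −0.48 in WT, −0.55, −0.60 and −0.65 in ∆G and −0.50, −0.51 and −0.54 in null cells. The WT arrays overlapped both mutant groups, and the 3 ∆G arrays lay just below the 3 null arrays. The passenger and shugoshin genes minus the outer genes gave −0.093, −0.19 and −0.17 in WT, −0.12, −0.17 and −0.0076 in ∆G and 0.15, 0.027 and 0.10 in null. There the null arrays lay above all others. Both differences are descriptions over members, without a test. The inner-minus-outer difference of medians in ∆G was −0.043 without ∆G replicate 3, −0.060 without ∆G replicate 1 and −0.0058 without WT replicate 3.

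**Figure D3:**
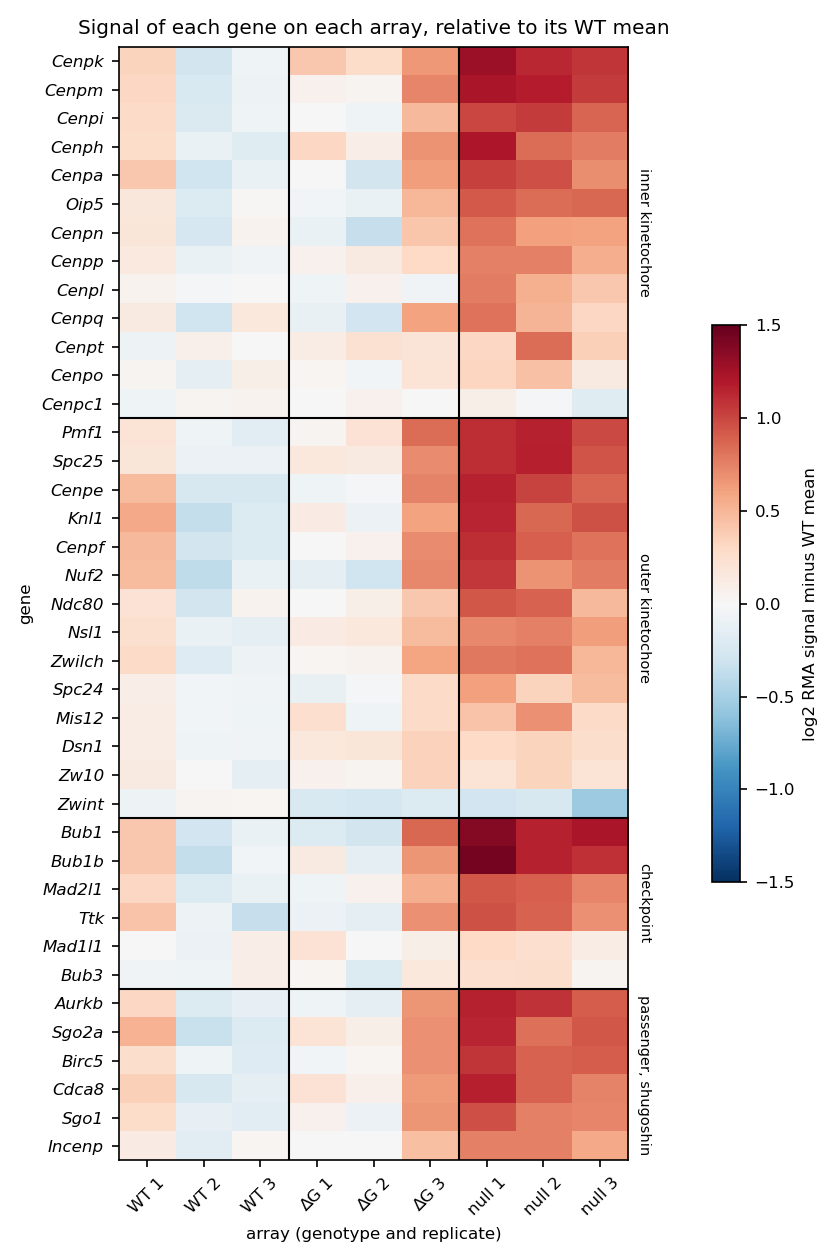
Log2 signal of each gene (rows) on each array (columns) minus the gene's WT mean, red for higher and blue for lower, with lines between the genotypes and between the 4 groups of genes. The null columns are red in nearly all rows, ∆G replicate 3 is redder than ∆G replicates 1 and 2, and Zwint is the row that is blue in all 6 mutant arrays.

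The comparison of ∆G with WT asks whether loss of the general E2F contact alone changes these genes. None of the 39 genes passed in limma, and 0.813% of all genes were called, so the lack of calls does not set these genes apart. Of the 39, 4 had an unadjusted p under 0.05, against 11.8% of all genes. These were Cenpk (log2 change 0.44, 95% interval 0.12 to 0.76, limma adjusted p = 0.23), Dsn1 (0.23, 0.057 to 0.40, 0.26), Spc25 (0.34, 0.019 to 0.65, 0.39) and Zwint (−0.23, −0.42 to −0.041, 0.31). Without ∆G replicate 3 their log2 changes were 0.34, 0.17, 0.15 and −0.24 in the same order. Without WT replicate 1 they were 0.61, 0.29, 0.43 and −0.27. The ∆G and WT arrays did not overlap in 3 genes, of which Cenpt and Dsn1 were above and Zwint was below WT. That separation was found in 7.05% and 9.48% of all genes. The median log2 change of the 39 genes was 0.16, with single values from −0.23 to 0.44, and 36 had a positive sign. Intervals were wide for several genes, such as Bub1 (−0.45 to 0.70) and Nuf2 (−0.46 to 0.67), so changes of that size were not detectable with 3 arrays. For Bub1b, Aurkb and Birc5 the upper bounds were 0.68, 0.57 and 0.60, below their null changes of 1.23, 1.05 and 0.96. The 95% intervals of these null changes began at 0.76, 0.63 and 0.58, so for Birc5 the ∆G and null intervals overlapped. In other genes, such as Dsn1 and Zw10, the ∆G upper bounds (0.40 and 0.37) lay above the null changes (0.30 and 0.25). Without ∆G replicate 3 the ∆G changes of Bub1b, Aurkb and Birc5 were −0.0086, −0.10 and −0.0089, and that of Bub1 was −0.24.

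The ∆G median of 0.16 depended on single arrays, among them ∆G replicate 3 and WT replicate 1. ∆G replicate 3 was the highest ∆G array in 35 of the 39 genes, and over all genes it was the highest in 34.6%. It exceeded the mean of ∆G replicates 1 and 2 by a median of 0.54, against −0.011 over all genes. Relative to the WT mean, the median of the 39 genes was 0.029 on ∆G replicate 1, 0.0058 on replicate 2 and 0.58 on replicate 3. On ∆G replicate 3, 27 genes lay above all WT arrays and below all null arrays, and 5 and 4 genes did so on ∆G replicates 1 and 2. Without ∆G replicate 3 the median ∆G change was −0.00083, and the medians of the inner, outer, checkpoint, and passenger and shugoshin genes were −0.00083, 0.042, −0.044 and −0.0064, where all arrays gave 0.12, 0.22, 0.14 and 0.22. WT replicate 1 stood apart in the same way, being the highest WT array in 32 genes (27.8% of all genes), by a median of 0.35. Leaving out WT replicate 1 gave a ∆G median of 0.32 and leaving out WT replicate 2 gave 0.077, while the fits without ∆G replicates 1 and 2 gave 0.25 and 0.29. None of the 39 genes was called in ∆G in any of these fits.

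Null cells had higher signals than ∆G cells. In ∆G minus null, 18 of the 39 genes were lower and none was higher, against 8.71% of all genes called, 4.27% as lower and 4.44% as higher. The median was −0.62, and 28 genes were lower on every ∆G array than on any null array (13.3% of all genes). The largest gaps were those of Bub1 (−1.12, SE 0.26, limma adjusted p = 0.022) and Bub1b (−1.01, SE 0.21, limma adjusted p = 0.014). The 18 genes were Oip5, Cenpi, Cenpk, Cenpl, Cenpm, Cenpn and Cenpp, then Ndc80, Spc24, Spc25, Nsl1 and Pmf1, then Bub1, Bub1b and Mad2l1, and Aurkb, Incenp and Birc5. This count moved with single arrays. It was 30 without ∆G replicate 3, 6 and 5 without ∆G replicates 1 and 2, and 5 without null replicate 1, with medians of −0.82, −0.56, −0.52 and −0.53. The share of all genes called moved with the same arrays, to 12.1%, 3.82%, 4.44% and 4.25%. With the Y-linked mean as a covariate none was called and 16 had an unadjusted p under 0.05, with a median of −0.72. In that fit 0.266% of all genes were called. Sex pattern and genotype cannot be told apart between ∆G and null.

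The level of these genes followed that of other cycle genes from array to array. Mki67, Top2a, Ccna2, Ccnb2 and Cdk1, all of which rose in null and none of which was called in ∆G, had mean signals of 9.0, 8.29 and 8.37 on WT, 8.70, 8.55 and 9.28 on ∆G and 9.68, 9.45 and 9.43 on null arrays. The 39 genes averaged 7.31, 6.91 and 7.0 on WT, 7.11, 7.06 and 7.56 on ∆G and 7.91, 7.82 and 7.68 on null arrays. In both sets WT replicate 1 and ∆G replicate 3 were the high arrays of their groups. The part of cell cycle position in the results was not tested. Macrophage and leukocyte markers ran otherwise in ∆G, where they were lowest on replicate 3 (5.71, against 6.80 and 6.35).

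The helicase genes Mcm2 to Mcm7, which act earlier in the cycle, gave another picture in ∆G. All 6 rose in ∆G, with a median of 1.32 (5 of 6 and 1.25 without ∆G replicate 3), and all 6 rose in null, with a median of 1.74. Their mean signals were 8.01, 7.61 and 7.76 on WT, 8.94, 8.93 and 9.17 on ∆G and 9.54, 9.62 and 9.45 on null arrays, so the 3 ∆G arrays lay above WT without overlap. The mean of the 39 genes minus that of the MCM genes was −0.71, −0.69 and −0.76 on WT, −1.83, −1.88 and −1.61 on ∆G and −1.63, −1.80 and −1.76 on null arrays. That difference overlapped between ∆G and null and lay apart in WT, a description without a test. Of the 5 MCM genes with a promoter window, 4 held an E2F site and 2 held CHR.

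**Figure D4:**
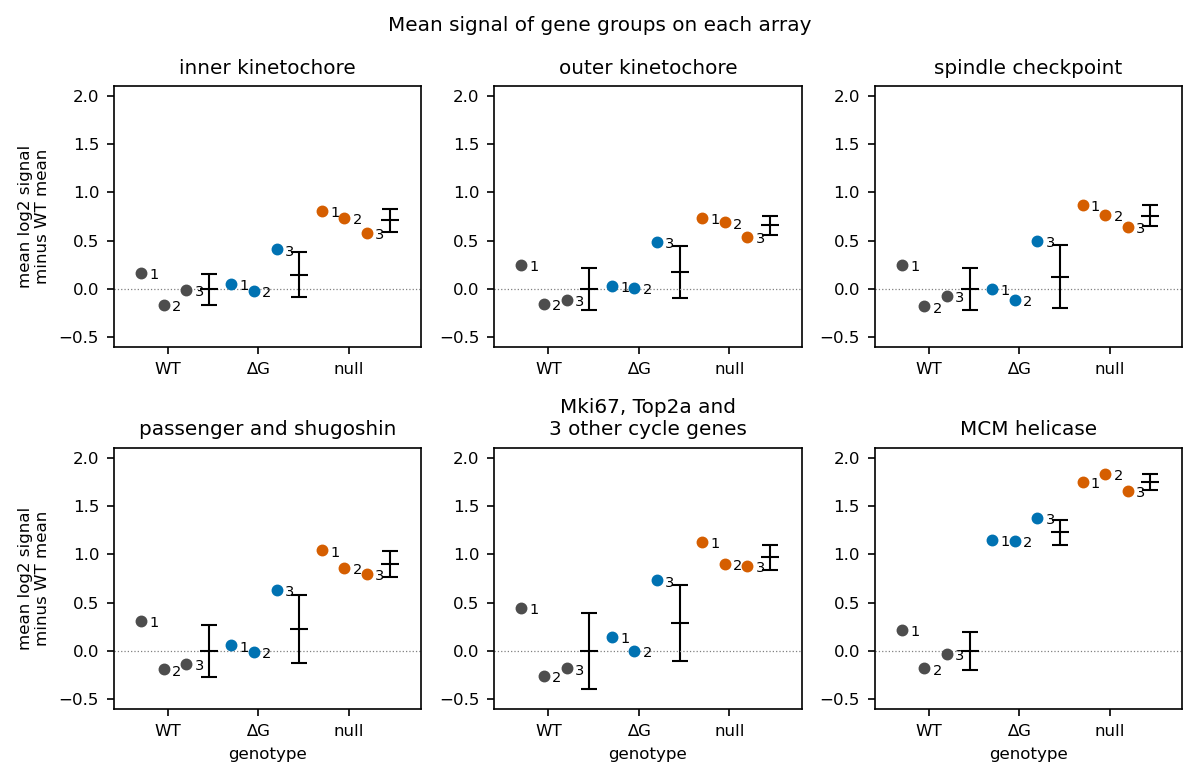
Mean log2 signal of 6 gene groups on each array minus the group's WT mean (vertical axis), by genotype. Numbered points are replicates, and bars give the mean and SD of 3 arrays. In the 4 kinetochore and checkpoint panels and the cycle panel ∆G replicates 1 and 2 lie within the WT range and replicate 3 above it, while all 3 ∆G arrays lie above WT in the MCM panel.

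Further kinetochore genes outside the set were read from a list of 22, of which 21 were measured. In null 15 of the 21 rose and none fell, with a median of 0.60. Kntc1, the Rod partner of Zwilch and Zw10, read 6.33, 5.90 and 5.91 on WT, 6.34, 6.37 and 6.81 on ∆G and 7.47, 7.44 and 7.31 on null arrays, a 2.56-fold rise in null (log2 1.36, SE 0.14, limma adjusted p = 9.0e-05). Ska2, of the SKA complex that tracks microtubule ends with NDC80, read 9.25, 8.92 and 9.02 on WT, 9.55, 9.51 and 9.76 on ∆G and 9.93, 9.96 and 9.91 on null arrays. Its 3 genotypes did not overlap, with ∆G between WT and null, as also in Kntc1 and Cenps of this list and in Cenpt of the set. The share of all genes with that order was not counted. Ska2 rose 1.83-fold in null and was the only 1 of the 21 that passed in ∆G (log2 0.54, SE 0.096, limma adjusted p = 0.027). That ∆G call was lost in 7 alternatives, at adjusted p-values of 0.13 and 0.081 without WT replicates 2 and 3, 0.071 and 0.056 without ∆G replicates 1 and 2, 0.061 without null replicate 1, 0.076 with only the groups compared and 0.074 with the Y-linked covariate. Ska3 and the mitotic kinase gene Plk1 rose 2.15-fold and 2.31-fold in null, with ∆G changes of 0.23 and 0.29 that did not pass (limma adjusted p = 0.74 and 0.69) and that were −0.0064 and 0.033 without ∆G replicate 3.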

How the data were processed

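RNA was hybridised to Affymetrix Mouse Gene 1.0 ST arrays, 9 in all. The deposited values are log2 signals that the authors made with RMA, per the labels, with affy also named in the submitters' processing notes; scanner files were not used here. The labels do not tie replicates to separate embryos, so p-values measure the spread between these arrays. Of 35512 probe sets 21789 carried 1 gene symbol, 1621 several and 12102 none; 1 had no values. The probe set with the highest mean stood for each of 19938 genes. limma 3.58.1 in R 4.3.3 was fitted to all 9 arrays with 1 coefficient per genotype, and p-values were adjusted by Benjamini-Hochberg over all genes of each comparison. The fit was also run on simulated data with known changes and independent noise for each gene. That run held no shifts shared across genes of an array and no sex pattern, so it does not cover those conditions. The members, lists and tests were chosen with earlier results of these data known. Genes given array by array are the 3 with the largest and the 1 with the smallest null change in each role group, members under an unadjusted p of 0.05 in ∆G, and Rb1; the 4 with the lowest null p were named from the further list. Alternatives were the replicate block, centring, quantile normalisation, a filter on dim genes, the mean of probe sets, a trended robust prior, only the groups compared, the Y-linked mean, WT replicate 3 alone, and each array left out. No array carried a depth; 3 per group limits the precision.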

Additional observations from a re-analysis of the deposited data

How the results depend on the processing

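Correlations of deviations from group means ran from −0.084 to 0.269 for arrays of the same replicate number and from −0.241 to 0.137 for arrays of different numbers. The ranges overlapped, and the same-number values of replicate 2 were 0.269, 0.182 and 0.122, so a weak pairing by number is not excluded. With the number as a block, 0 of the 39 genes were called in ∆G minus WT, 33 in null minus WT and 22 in ∆G minus null, against 0, 33 and 18. Over all genes the block gave 211, 3777 and 1977 calls in the same order, against 162, 3678 and 1737. No alternative called any of the 39 genes in ∆G minus WT, where 4 had an unadjusted p under 0.05 (0 without WT replicate 2, 15 without WT replicate 1). Leaving out single arrays gave 25 to 35 calls in null minus WT and 5 to 30 in ∆G minus null. Over all genes the same fits called 12.8% to 19.5% and 3.82% to 12.1%. With the Y-linked covariate the calls fell to 10 and 0, and the shares of all genes called to 7.92% and 0.266%. The medians with single arrays left out ran from −0.00083 to 0.32, from 0.75 to 0.96 and from −0.82 to −0.52 for ∆G minus WT, null minus WT and ∆G minus null. Calls over all genes in ∆G minus WT ranged from 62 (without WT replicate 2) to 252 (without ∆G replicate 3) around 162, and in ∆G minus null fell from 1737 to 53 with the Y-linked covariate.

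The inner minus outer difference of medians ran from −0.14 to −0.0058 with single arrays left out in ∆G minus WT (−0.016 with the Y-linked covariate), from −0.081 to 0.021 in null minus WT, and from −0.11 to 0.0039 in ∆G minus null (−0.12 without Cenpe and Cenpf). Sign changes of single genes were followed only for those given array by array and those named from the further list. Their values that changed sign, listed next, had no call. The list is not complete for the 39 genes. With all arrays 36 of them had a positive ∆G minus WT sign, and without ∆G replicate 3 their median was −0.00083. Further members therefore turned negative in that fit. Among the genes followed, 10 turned negative there, each at its lowest value of the fits that leave out 1 array. They were −0.024 for Cenpi (highest 0.29), −0.041 for Cenpe (0.45), −0.24 for Bub1 (0.33), −0.0086 for Bub1b (0.42) and −0.0055 for Mad2l1 (0.33). The others were −0.080 for Bub3 (0.099), −0.10 for Aurkb (0.30), −0.0089 for Birc5 (0.35), −0.0064 for Incenp (0.22) and −0.0064 for Ska3 (0.38). Bub1 also gave −0.024 without WT replicate 2. Cenpc1 gave −0.0043 with quantile normalisation repeated and −0.028 to 0.031 with 1 array left out. Bub3 gave −0.0081 after centring. Cenpc1 ranged from −0.11 to 0.028 in null minus WT and from −0.018 to 0.12 in ∆G minus null, each with another sign without null replicate 3. Bub3 gave 0.0093 in ∆G minus null with the Y-linked covariate. The cause of these shifts was not tested.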
